A study of Mus musculus with 30 samples.

Results

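The replication-dependent histone genes encode the linker histone H1 and the core histones H2A, H2B, H3 and H4 that cells make in bulk while they copy their DNA. Members were chosen by symbol alone, as names of the H1f1 to H1f5, H2ac, H2bc, H3c and H4c series or their older Hist names. In the count table of the washout experiment 65 of 55291 genes are members, of which 9 carry an older name there. In the authors' tables of the time course 63 of 21859 genes are members, and all 63 are also in the count table. By class there are 5 H1, 19 H2A, 17 H2B, 12 H3 and 12 H4 genes.

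RNA in the making was labelled with a short pulse of 4-thiouridine and sequenced, an assay called TT-seq, in E14 mouse embryonic stem cells grown with serum, LIF and inhibitors of GSK and MEK. The osTIR1 gene was inserted in these cells, and in SPT16-AID cells an auxin-inducible degron and a V5 tag were joined to SPT16. This protein is part of FACT, a chaperone that lifts and replaces histones as polymerases pass. With osTIR1, the auxin 3-indoleacetic acid (IAA, 500 nM) leads to loss of a degron-tagged protein, and EtOH (ethanol) served as vehicle. In the washout experiment, SPT16-AID cells received IAA or EtOH for 12 h and then fresh medium for 24 h, with 4 libraries per treatment, namely 2 in each of the lines 10E and 11D. The titles of the time course name 11 groups, with 2 libraries each (22 in all): untagged cells at 0 h and after 3, 6 and 12 h of IAA, and SPT16-AID cells at 0 h, after 3, 6 and 12 h of EtOH and after 3, 6 and 12 h of IAA. Of the time course only the authors' comparison tables were used here, and neither the groups that a table compares nor its direction are given, so its values are called positive or negative as signed. Groups follow the titles, and other label fields contradict them: the treatment field gives ethanol also for the IAA washout libraries, and the tag and treatment fields contradict the titles of many time course samples. The titles name Clone1 and Clone2, but nothing ties these to 10E or 11D. No label tells whether replicate libraries are separate cultures. The washout groups come from libraries of 6547992 to 16554314 counts.

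Replication-dependent histone genes differ from nearly all other protein-coding genes in how their RNA is made. They have no introns, lie in clusters that gather in a nuclear body around the coactivator NPAT, and peak in S phase. Their mRNA ends not in a poly(A) tail but in a short stem-loop, which the stem-loop binding protein SLBP holds and the U7 small nuclear RNP helps to cut. Many H2A and H2B genes sit head to head and share the DNA between their starts.

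The members lay in 6 groups split where neighbours were over 100 kb apart, 5 on chromosome 13 and 1 on chromosome 3 (mm10). The largest, chr13:23531050-23764406, held 28 members, among them H1f1 to H1f4. A further 19 lay in chr13:21715763-21837530, 5 in chr13:22035164-22043676 and 10 in chr3:96219865-96270132. The germline pair H2ac1 and H2bc1, known from testis, lay apart at chr13:23933773-23934851. The remaining member, Hist1h2al at chr13:51202727-51203065, is annotated as a processed pseudogene. In the GENCODE M21 annotation 60 of the 65 gene bodies were wholly exonic.

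The stem-loop that ends these mRNAs was searched for in the annotated transcripts, because it marks the point past which a read no longer comes from the mature mRNA. The histone stem-loop consensus of 16 bases was found in transcripts of 40 of 65 members: 3 of 5 H1, 10 of 19 H2A, 9 of 17 H2B, 8 of 12 H3 and 10 of 12 H4 genes. A missing match says only that these letters are not in the annotated transcript, and many annotated transcripts end at the stop codon. The forms found are shown by 1 or 2 members each, 5′ to 3′ with the stem-loop in capitals, in mm10 coordinates from the GENCODE M21 transcripts.
H3c1 stem-loop, chr13:23761885-23761910, strand minus: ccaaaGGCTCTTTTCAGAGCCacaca
H2bc12 stem-loop, chr13:22036295-22036320, strand plus: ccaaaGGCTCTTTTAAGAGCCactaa
H2ac20 stem-loop, chr3:96220413-96220438, strand minus: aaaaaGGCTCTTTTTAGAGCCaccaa
H4c4 stem-loop, chr13:23581945-23581970, strand plus: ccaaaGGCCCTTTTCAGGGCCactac
H4c9 stem-loop, chr13:22040961-22040986, strand minus: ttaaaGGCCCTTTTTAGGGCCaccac
H4c2 stem-loop, chr13:23757361-23757386, strand plus: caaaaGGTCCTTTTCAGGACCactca
All 10 H4 stem-loops had a stem starting GGCC or GGTC and none the GGCT form, which all 30 stem-loops of the other classes had. Within H4, 6 members had the form shown for H4c4, 2 that shown for H4c9 and 2 that shown for H4c2. The transcript of H1f3 runs 4884 bases past its stem-loop and that of H2ac6 2010 bases, so the counted length of a gene is not the length of its mature mRNA. Reads beyond the stem-loop enter the counts of such genes.

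Promoters are shown for 2 H4 genes that lay far apart in the washout, and for 2 H2B genes likewise, as the 250 bases before the RefSeq start (GRCm38.p6). RefSeq promoters matched 57 members, 58 promoters in all because H2bc6 has 2. Motifs searched on both strands are in capitals: the TATA box as TATAAA, the CCAAT box, the octamer ATTTGCAT known from H2B promoters, GGTCCG known from H4 promoters, the H1 box AAACACA, and the string CGTCCGC.
H4c4 promoter, chr13:23581318-23581567, strand plus: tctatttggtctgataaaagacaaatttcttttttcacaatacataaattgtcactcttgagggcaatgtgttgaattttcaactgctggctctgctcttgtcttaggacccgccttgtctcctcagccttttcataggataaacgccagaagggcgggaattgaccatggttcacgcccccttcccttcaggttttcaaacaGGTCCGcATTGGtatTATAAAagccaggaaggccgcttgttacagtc
H4c9 promoter, chr13:22041363-22041612, strand minus: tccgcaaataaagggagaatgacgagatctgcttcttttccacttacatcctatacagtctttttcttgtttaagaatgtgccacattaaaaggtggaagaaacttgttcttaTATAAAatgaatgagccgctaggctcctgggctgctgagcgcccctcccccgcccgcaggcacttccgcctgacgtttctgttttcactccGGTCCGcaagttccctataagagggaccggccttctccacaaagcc
H2bc11 promoter, chr13:22042948-22043197, strand plus: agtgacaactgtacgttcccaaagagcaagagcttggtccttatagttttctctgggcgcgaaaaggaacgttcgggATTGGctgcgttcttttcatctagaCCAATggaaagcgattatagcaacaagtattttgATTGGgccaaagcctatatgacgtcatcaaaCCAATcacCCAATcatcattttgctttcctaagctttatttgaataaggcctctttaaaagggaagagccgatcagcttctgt
H2bc8 promoter, chr13:23571150-23571399, strand plus: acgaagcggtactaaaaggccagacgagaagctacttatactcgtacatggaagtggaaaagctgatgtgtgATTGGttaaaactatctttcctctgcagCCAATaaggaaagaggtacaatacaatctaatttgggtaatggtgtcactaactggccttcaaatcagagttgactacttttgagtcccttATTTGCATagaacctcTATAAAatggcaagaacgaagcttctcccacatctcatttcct
CCAAT or its complement ATTGG was in all 5 H1, all 17 H2A and all 15 H2B promoters and in 8 of 10 H3 promoters, but in 3 of 11 H4 promoters, beside 33.8% of all 32851 RefSeq promoters of the same length. GGTCCG or CGGACC was in 8 of 11 H4 promoters, 1 H2B and 1 H3 promoter and no H1 or H2A promoter, beside 6.72% of all. The octamer or its complement ATGCAAAT was in 7 of 15 H2B and 6 of 17 H2A promoters and in no H1, H3 or H4 promoter, beside 1.60%. AAACACA or TGTGTTT was in 4 of 5 H1, 2 H2A and 2 H2B promoters, beside 6.25%, and TATAAA or TTTATA in 28 of the 58, beside 12.4%. CGTCCGC or GCGGACG was in none of them, beside 2.02%. In H3c11, 2 matches overlapped, and in the other promoters no match overlapped another. A match is a string of letters and not a tested site.

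Many members are near copies of each other. With transcripts cut into all runs of 50 bases, 32 of 65 members shared at least 50% of their runs with another member and only 4 shared none (H1f1, H1f5, H2bc18 and H2bc21). All runs of H2ac19 also occur in H2ac18, 97.3% of those of H2bc23 occur in H2bc24, and 79.7% of those of H3c13 occur in H3c15. The counting command in the file header of the washout counts sets neither the option that counts reads mapping to several places nor the one that assigns reads overlapping several genes. How the tables of the time course were counted is not given in the sources used here. The value of a member that is a near copy of another is therefore that of the name as counted.

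Of the 65 members, 54 passed the filter on low counts and entered the washout test, and 11 did not. H2ac18, H2bc18, H2bc24 and H3c14 had no count in any washout library. For 3 of these, H2ac18, H2bc18 and H3c14, the annotation places another gene on the same strand across the same bases (Gm20634 or Gm42743). H2bc18 and H3c14 were measured in the time course, where the authors' deposited table for 12 h gives them mean normalised counts of 1860 and 317. The other 7 untested members were H2ac1, H2ac14, H2ac19, H2ac23, H2ac24, H2bc23 and H4c17, with 0 to 31 counts per library. H2ac1 had 31 and 18 counts in the EtOH libraries numbered 2 of lines 10E and 11D, none in those numbered 1, and 0 to 7 counts in the IAA libraries.

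H1 genes had the highest summed level. As CPM (counts scaled to a common library size, with TMM), the 5 H1 genes stood at 236 ± 65.7 CPM in EtOH libraries, the 12 H4 genes at 180 ± 65.9, the 12 H3 genes at 146 ± 43.0, the 17 H2B genes at 118 ± 33.6 and the 19 H2A genes at 99.4 ± 28.0 (SD, n = 4). Per kilobase of counted length, H1f1 led with a mean of 108 CPM per kb over the 8 libraries, ahead of H1f5 (63.4), H4c1 (61.7), H4c12 (57.5), H4c2 (50.4) and H4c9 (50.4). H2ac15 led the H2A genes (49.3 CPM per kb), H2bc8 the H2B genes (38.8) and H3c6 the H3 genes (37.9). H2ac18, H2bc18, H2bc24 and H3c14, with no washout count, add nothing to these sums and ranks. In the time course, the authors' deposited table for 12 h gives H2bc18 a mean normalised count of 1860, beside 588 for H2bc8. The order of classes and genes thus holds only as counted in the washout.

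**Figure D1:**
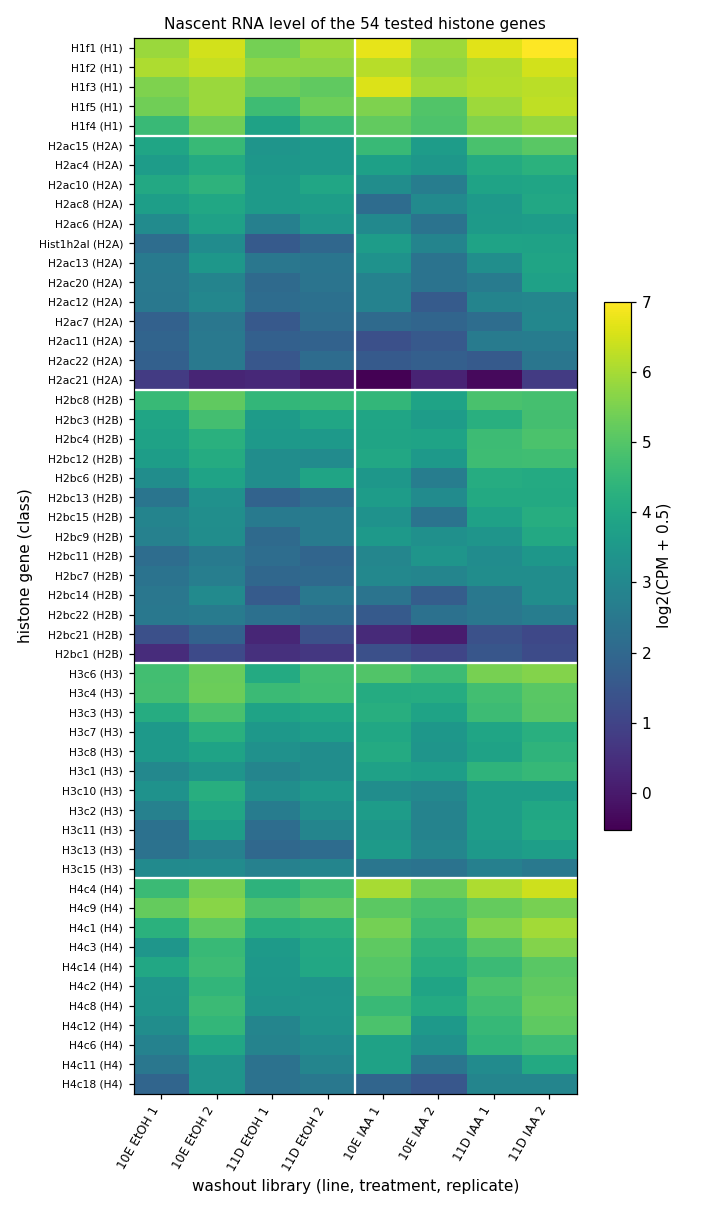
Level of the 54 tested histone genes (rows, by class and mean level) in the 8 washout libraries (columns), as log2(CPM + 0.5). Members of a class span a wide range, from 0.694 mean CPM for H2ac21 to 19.4 for H2ac15 among H2A genes, and H1f1 has the highest mean of all at 80.2 CPM.

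The washout comparison asks what remains of the response to SPT16 loss after the auxin has been removed for 24 h. After washout 12 of the 54 tested members were higher in IAA than in EtOH libraries, beside 8.83% of all 15110 genes tested, and 0 were lower, beside 7.6% (edgeR quasi-likelihood test, false discovery rate (FDR) under 0.05). By class these were 4 of 11 tested H4 genes, 4 of 14 H2B, 2 of 11 H3, 1 of 5 H1 and 1 of 13 H2A genes, with log2 fold changes of 0.74 to 1.31 and FDR of 0.0118 to 0.0448. The median log2 fold change was 0.50 over tested members and −0.05 over all genes tested, and 41 of the 54 members lay above 0. An unadjusted p under 0.05 was reached by 22 members. For the same comparison the authors' deposited table called 14 of 58 members with an adjusted p positive and 0 negative, beside 16% of all genes called in either direction. These values pool 2 lines that differed. Within line 10E the member median was −0.20, with 33 of 54 below 0, and within 11D it was 1.02, with 53 above 0. In such bulk libraries fewer cells in S phase and less histone RNA per cell cannot be told apart, nor can more of either.

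The share of counts at 10 loci of ribosomal RNA-like reads was 7.31% to 11.6% in EtOH and 30.6% to 41.7% in IAA libraries. With those loci left out, 12 members were called, the same 12. The count moved with single libraries. It was 4 without the first EtOH library of line 11D, 5 without the first IAA library of 10E, 6 without the first EtOH library of 10E, the second EtOH or the first IAA library of 11D, 7 without the second IAA library of 11D, and 18 without the second EtOH or the second IAA library of 10E. H2bc11, H3c1, H3c13 and H4c4 were called in all 8 cases, and H1f3 in 6. No member was called lower in any.

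H4 genes had the highest class median, a log2 fold change of 0.93. H4c4, the H4 gene with the highest mean CPM, stood at 23.7, 43.9, 19.9 and 26.0 CPM in the EtOH libraries, in the order 10E replicates 1 and 2, then 11D replicates 1 and 2, and at 64.3, 38.9, 66.9 and 85.8 CPM in the IAA libraries in that order. The second 10E library of each treatment overlapped, and the other IAA libraries lay above all EtOH libraries. Its log2 fold change was 1.17 ± 0.28 (SE, edgeR FDR = 0.0156). H4c3 stood at 10.4, 22.9, 11.4 and 15.8 CPM in EtOH and 34.3, 19.9, 31.3 and 48.4 CPM in IAA libraries, in the same order (1.14 ± 0.30, edgeR FDR = 0.0230). H4c2 went from 12.96 ± 5.37 to 27.1 ± 9.16 CPM (SD, n = 4, log2 fold change 1.06 ± 0.31, edgeR FDR = 0.0374) and H4c1 from 22.7 ± 8.15 to 43.8 ± 15.6 CPM (0.95 ± 0.29, edgeR FDR = 0.0448, and 0.0627 with line as a block). For all 4 of these genes the second IAA library of line 10E lay within the EtOH range.

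Of the other H4 genes none passed in the edgeR test. H4c9, whose promoter holds GGTCCG at nearly the same distance from its start as that of H4c4, stood at 37.1, 49.9, 29.4 and 35.2 CPM in EtOH and 33.7, 27.5, 36.8 and 43.6 CPM in IAA libraries. The groups overlapped throughout (log2 fold change −0.10 ± 0.20, edgeR FDR = 0.775). H4c12 had a fold change near that of H4c2 and a wider spread, from 7.02 to 21.7 CPM in EtOH and 11.2 to 34.4 CPM in IAA libraries (1.03 ± 0.39, edgeR FDR = 0.0913). The authors' deposited table of the washout did call H4c12 (adjusted p = 0.0321) and H4c8 (adjusted p = 0.0339), and DESeq2 called H4c6, H4c8 and H4c12 beside the 12. H4c18 had the lowest value of the class (−0.19 ± 0.41, edgeR FDR = 0.781). GGTCCG was in the promoter of 7 of the 10 tested H4 genes with a promoter sequence, of which 2 were called, and absent from 3, of which 2 were called.

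Among H3 genes, 2 rose. H3c13 stood at 4.49, 6.43, 3.57 and 3.87 CPM in EtOH and 11.4, 7.12, 11.2 and 12.6 CPM in IAA libraries (log2 fold change 1.20 ± 0.27, edgeR FDR = 0.0120). H3c1 stood at 7.50, 10.1, 7.02 and 8.54 CPM in EtOH and 13.3, 12.5, 20.3 and 22.4 CPM in IAA libraries (1.05 ± 0.24, edgeR FDR = 0.0118). In both, all 4 IAA libraries lay above all 4 EtOH libraries. H3c15 was the opposite case and the 1 tested member with every IAA library below every EtOH library: it stood at 7.97, 8.14, 6.37 and 6.94 CPM in EtOH and 4.90, 4.61, 6.25 and 5.23 CPM in IAA libraries (−0.48 ± 0.23, edgeR FDR = 0.171). As given above, most 50-base runs of H3c13 also occur in H3c15. H3c6, the H3 gene with the highest level, stood at 26.7 ± 9.14 and 36.7 ± 10.9 CPM (SD, n = 4, 0.46 ± 0.27, edgeR FDR = 0.265).

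H2B genes split. H2bc13 stood at 4.80, 9.16, 3.18 and 4.06 CPM in EtOH and 12.0, 8.04, 15.9 and 16.0 CPM in IAA libraries (log2 fold change 1.29 ± 0.34, edgeR FDR = 0.0230). H2bc11 stood at 4.02, 5.37, 4.01 and 3.35 CPM in EtOH and 7.06, 10.0, 8.27 and 10.5 CPM in IAA libraries, with no overlap (1.10 ± 0.25, edgeR FDR = 0.0122). H2bc9 (0.92 ± 0.28, edgeR FDR = 0.0414) and H2bc7 (0.82 ± 0.25, edgeR FDR = 0.0425) also rose without overlap. H2bc8, the H2B gene with the highest level as counted, stood at 25.4 ± 6.66 CPM in EtOH and 22.6 ± 6.37 CPM in IAA libraries (SD, n = 4, −0.17 ± 0.24, edgeR FDR = 0.665). H2bc21 had the lowest value, −0.59 ± 0.51 at 0.527 to 3.05 CPM (edgeR FDR = 0.454). Of the tested H2B genes with a promoter sequence, the octamer ATTTGCAT was present in 6, of which 0 were called (median log2 fold change 0.11), and absent from 6, of which 4 were called (median 0.87). H2bc6 counts as holding it only through its second promoter, 35154 bases from its counted start. Among tested H2A genes the octamer was present in 5 (0 called, median 0.17) and absent from 7 (0 called, median 0.14). The promoters printed for H2bc11 and H2bc8 are without and with the octamer. The H2B split was seen in the values and was not tested.

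Of 13 tested H2A genes 1 was called. Hist1h2al, the annotated pseudogene, stood at 4.02, 8.38, 2.58 and 3.49 CPM in EtOH and 12.0, 6.85, 13.8 and 13.5 CPM in IAA libraries (log2 fold change 1.31 ± 0.36, edgeR FDR = 0.0285). Of its 50-base runs, 67.6% occur in other members, and reads of those runs cannot be told apart between the genes. H2ac15, the H2A gene with the highest level, stood at 14.6 ± 5.84 and 24.1 ± 9.15 CPM (SD, n = 4, 0.72 ± 0.32, edgeR FDR = 0.145). H2ac10 was lowest at −0.52 ± 0.29 (edgeR FDR = 0.228).

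Of the linker histone genes, H1f3 rose. It stood at 46.6, 58.3, 39.3 and 35.7 CPM in EtOH and 96.1, 61.4, 70.3 and 74.1 CPM in IAA libraries, with no overlap (log2 fold change 0.74 ± 0.20, edgeR FDR = 0.0235). H1f4 had the same fold change with a wider spread (0.74 ± 0.30, edgeR FDR = 0.113). H1f1 stood at 62.2 ± 19.3 and 98.2 ± 28.6 CPM (SD, n = 4, 0.66 ± 0.26, edgeR FDR = 0.0982). H1f5 (0.38 ± 0.29, edgeR FDR = 0.396) and H1f2 (0.17 ± 0.20, edgeR FDR = 0.593) did not pass. In all, 6 of the tested members had every IAA library above every EtOH library, beside 11.8% of all genes, and 1 every IAA library below, beside 11.3%. That share of members, 6 of 54, was near the share of all genes.

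**Figure D2:**
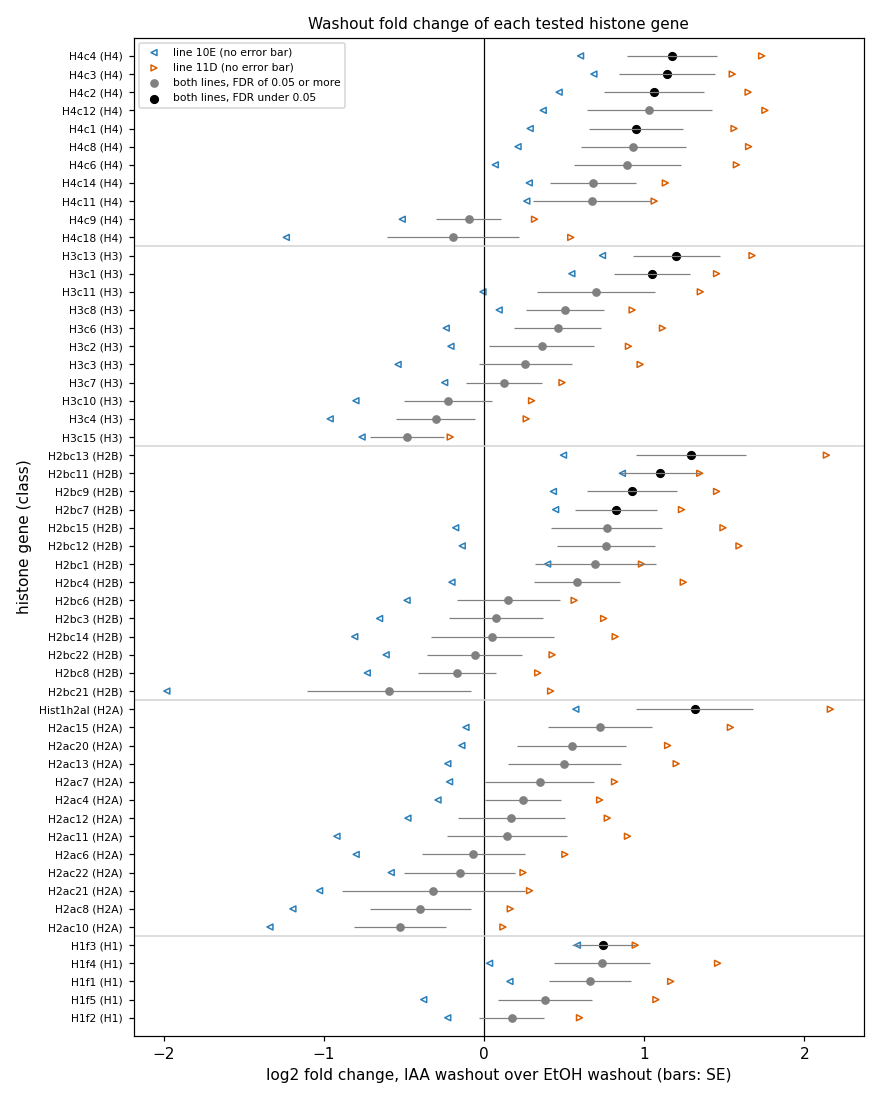
Log2 fold change of IAA over EtOH washout libraries for the 54 tested histone genes (rows, by class). Filled points give both lines together with the SE, black where the FDR is under 0.05, and open triangles give each line alone. The 12 black points lie between 0.74 and 1.31, and for all 54 genes the 11D triangle lies to the right of the 10E triangle.

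The makeup of histone RNA differed between the groups. Of the summed histone CPM, H4 genes held 20.7% to 24.8% in EtOH libraries and 26.04% to 30.0% in IAA libraries (22.9% ± 1.68 and 28.1% ± 1.82, SD, n = 4). H2A genes held 12.5% to 13.01% and 9.33% to 11.1% (12.8% ± 0.233 and 10.3% ± 0.933), and H3 genes 18.3% to 19.1% and 14.7% to 16.9% (18.7% ± 0.355 and 16.1% ± 1.01). For these 3 classes the 4 EtOH and 4 IAA libraries did not overlap, in either line. The shares of all classes add up to a whole, so a higher H4 share lowers others. The 3 shifts are therefore not independent results. The shares of H1 (30.4% ± 1.48 and 31.2% ± 2.28) and H2B genes (15.2% ± 0.324 and 14.3% ± 1.31) overlapped. These shares are ratios within each library, so the library scaling and the counts at the ribosomal RNA-like loci do not enter the arithmetic. Every IAA library had a higher share at those loci than every EtOH library. A part of that difference in the class shares cannot be told apart from treatment. The class shares have no p, because they are sums over chosen genes. Members with no washout count, such as H2bc18 and H3c14, are missing from them.

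**Figure D3:**
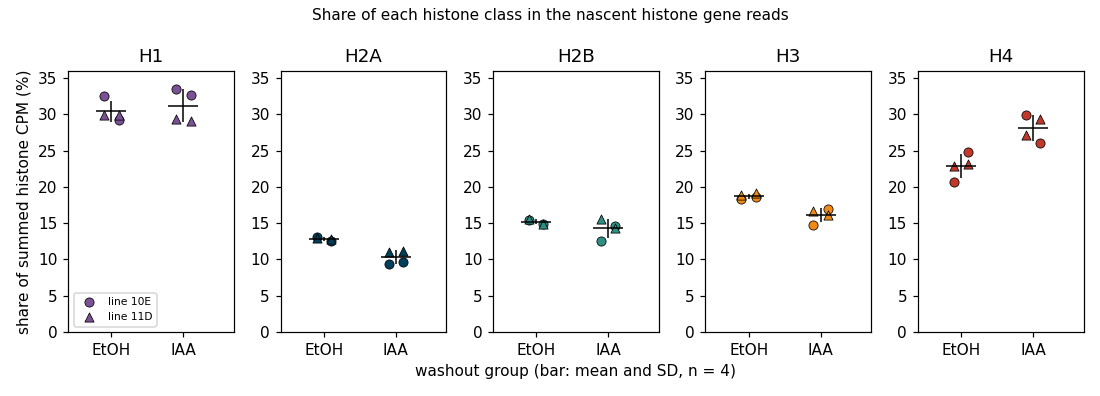
Share of each histone class in the summed histone CPM of each washout library (circles line 10E, triangles line 11D, bars mean and SD of 4 libraries). The H4 share is higher in all 4 IAA libraries than in any EtOH library, the H2A and H3 shares are lower, and the H1 and H2B shares overlap.

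As levels, the sums were higher in every class with TMM scaling, 1.73-fold for H4 (313 ± 98.7 against 180 ± 65.9 CPM), 1.44-fold for H1, 1.33-fold for H2B, 1.22-fold for H3 and 1.16-fold for H2A. In each class the IAA libraries overlapped the EtOH libraries on this scale. As shares of raw counts, H1, H2A, H2B and H3 were lower in IAA libraries and H4 alone was higher. Raw counts include the 10 ribosomal RNA-like loci, which held 7.31% to 11.6% of counts in EtOH and 30.6% to 41.7% in IAA libraries. By location, the ratio of IAA to EtOH means was 1.43 for the 28 members of chr13:23531050-23764406, 1.41 for the 19 of chr13:21715763-21837530, 1.41 for the 10 on chromosome 3 and 1.18 for the 5 of chr13:22035164-22043676. The H4 gene of that last group is H4c9 and its H2B genes are H2bc11 and H2bc12. On chromosome 3 only 6 of the 10 were tested, 3 above and 3 below 0, with a median log2 fold change of 0.11. That median was 0.48 for chr13:23531050-23764406, 0.50 for chr13:21715763-21837530 and 0.17 for chr13:22035164-22043676.

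Head-to-head pairs let an H2A and an H2B gene with shared flanking DNA be set side by side. There were 13 such pairs with starts at most 400 bases apart, and in 9 both genes were tested. In 8 of the 9 the H2B gene had the higher washout log2 fold change, with a median difference of 0.48 and a range of −1.14 to 0.95. The difference was largest for H2bc11 (1.10 ± 0.25) over H2ac11 (0.14 ± 0.38), whose starts lie 270 bases apart, so that the promoter printed for H2bc11 is nearly the same DNA as that of H2ac11. H2bc13 (1.29 ± 0.34) and H2ac13 (0.50 ± 0.35) came next. The exception was H2bc21 (−0.59 ± 0.51) beside H2ac20 (0.55 ± 0.34). The difference within pairs was not tested, and most SE intervals overlap.

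**Figure D4:**
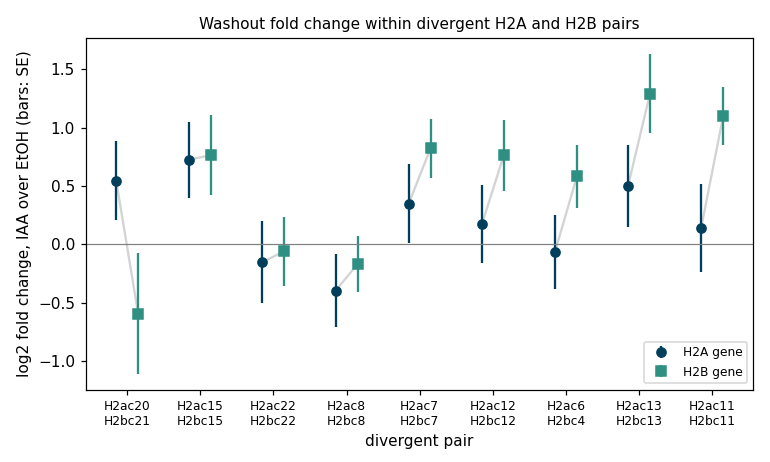
Washout log2 fold change (points) and SE (bars) of the H2A gene (circles) and the H2B gene (squares) of the 9 divergent pairs tested, ordered by their difference. The H2B gene is higher in 8 pairs, by up to 0.95 for H2bc11 over H2ac11, and lower in the pair of H2ac20 and H2bc21.

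The ratio of IAA to EtOH sums differed between the 2 lines, although no gene passed the test of a line difference. Summed over all members, the ratio of IAA to EtOH means was 0.967 in line 10E and 2.06 in line 11D. By class it was 1.05 and 2.01 for H1, 0.722 and 1.78 for H2A, 0.854 and 2.02 for H2B, 0.817 and 1.78 for H3, and 1.18 and 2.53 for H4, each time 10E before 11D. Sums over all members in line 10E were uneven, at 722 and 1118 CPM in EtOH and 1066 and 714 CPM in IAA libraries. Line 11D stood at 578 and 700 CPM in EtOH and 1171 and 1458 CPM in IAA libraries. Within line 11D 11 members rose, beside 1.59% of all genes, and 0 fell, beside 1.02%, and 53 of the 54 lay above 0. Within line 10E 3 members fell, beside 9.46% of all genes, and 0 rose, beside 8.84%, and 33 of 54 lay below 0. Both counts in 10E were under the share of all genes. Of 222 other wholly exonic protein-coding genes, 47 were called lower and 6 higher in 10E, and 0 lower and 5 higher in 11D.

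The 3 members lower in line 10E were H2ac10 (log2 fold change −1.34, edgeR FDR = 0.0141), H2ac8 (−1.19, FDR = 0.0378) and H3c4 (−0.96, FDR = 0.0280). H2ac10 stood at 15.8 and 19.8 CPM in EtOH and 8.43 and 5.80 CPM in IAA libraries of line 10E. In line 11D it stood at 11.4 and 14.7 CPM against 13.9 and 14.3 CPM (0.12, edgeR FDR = 0.857). The 11 members higher in line 11D were H1f4, H2ac15, Hist1h2al, H2bc4, H2bc12, H2bc13, H3c1, H3c13, H4c1, H4c4 and H4c8, from 1.24 for H2bc4 to 2.16 for Hist1h2al. H2bc12 stood at 8.56 and 8.11 CPM in EtOH and 24.9 and 25.4 CPM in IAA libraries of line 11D (1.59, edgeR FDR = 0.0154), and at 12.2 and 16.6 against 15.5 and 10.9 CPM in line 10E (−0.14, FDR = 0.749). H3c4, H2bc4, H2bc12 and H4c8 were named for their calls within a line, after their values were seen.

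The difference between the lines was tested for each gene as the line-by-treatment interaction. No member passed (lowest FDR 0.261), nor did any of the 15110 genes (0% called), although all 54 tested members lay above 0, that is, higher in 11D than in 10E, from 0.36 to 2.40 with a median of 1.23. Leaving out 1 library, the member median ran from 0.76 (without the second EtOH library of 10E) to 1.52 (without the first IAA library of 10E). Without the second EtOH library of 10E, 53 members lay above 0 and 1 below. All genes had a median of 0.08, with 53.9% above 0. Other protein-coding genes whose bodies are wholly exonic had a median of 0.72, with 193 of 222 tested above 0. All 11 replacement and variant histone genes lay above 0 with a median of 0.88. An unadjusted p under 0.05 was reached by 31 members and by 14.9% of all genes. DESeq2 called 1 member (H2bc12) and 135 genes, and edgeR without the filter on low counts called 8 members and 421 genes.

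The time course asks what happens while SPT16 is being lost. In the authors' deposited table for 3 h no member passed, where 0.531% of genes were positive and 0.0458% negative, and the 46 members with an adjusted p lay between −0.02 and 0.09 on the shrunken log2 scale. At 6 h 1 of 53 members was positive, a share near the 1.71% of all genes, and 0 were negative, beside 1.39%. The authors' deposited table gave that member, H3c13, 1.35 with an SE of 0.52 (adjusted p = 0.0260), the highest value of the 53. Next in the authors' deposited table came H3c11 at 0.59 (adjusted p = 0.141) and H2bc15 at 0.39 (adjusted p = 0.171). At 0 h, before treatment, no member passed, beside 0.0201% and 0.355% of genes, and in the authors' deposited table the 59 members lay between −4.4e-06 and 3.92e-05. For H1f1 the authors' deposited tables gave an SE of 0.00144 at 0 h, 0.123 at 3 h, 0.198 at 6 h and 0.415 at 12 h. Sizes therefore cannot be compared across times, and a small early value does not show absence of change.

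At 12 h most members lay below 0. The authors' deposited table held 62 members with an adjusted p, of which 58 were below 0, beside 48.7% of all 15917 genes, with a median of −0.27 against 0.01 for all genes. Naive stem cell markers had a median of −0.36 in the same authors' deposited table. Few were called: 2 were negative, beside 12.1% of all genes, and 0 positive, beside 8.58%. In the authors' deposited table these were H2bc22 (−1.01 ± 0.59, adjusted p = 0.0400) and H3c15 (−0.99 ± 0.60, adjusted p = 0.0443). H2ac22, the divergent partner of H2bc22, was given −1.01 ± 0.69 (adjusted p = 0.0525) by the authors' deposited table. An unadjusted p under 0.05 was reached by 7 members there. Other wholly exonic protein-coding genes lay mostly above 0, with 21.8% of 418 below 0 and a median of 0.21 in the authors' deposited table, 57 positive and 6 negative.

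By class, the medians at 12 h in the authors' deposited table were −0.41 for H1, −0.39 for H2A, −0.31 for H2B, −0.28 for H3 and −0.06 for H4. All 5 H1 genes and all 12 H3 genes lay below 0 in the authors' deposited table, H1f2 lowest of the H1 genes at −0.52 ± 0.47 (adjusted p = 0.203) and H1f1 highest at −0.14 (adjusted p = 0.719). Of the H4 genes the authors' deposited table put H4c9 lowest at −0.54 ± 0.45 (adjusted p = 0.185), while H4c4 (−0.07), H4c3 (−0.04), H4c8 (−0.04) and H4c1 (0.05) stood near 0. No difference between classes was tested.

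**Figure D5:**
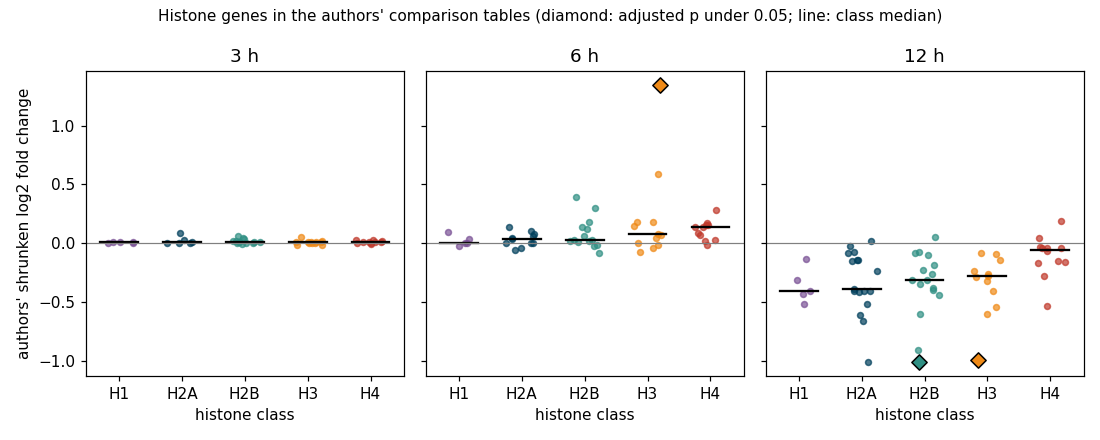
Shrunken log2 fold change of histone genes at 3, 6 and 12 h by class, from the authors' deposited table for each time, with the class median as a line and members with an adjusted p under 0.05 as diamonds. The class medians lie at or above 0 at 3 and 6 h and between −0.41 and −0.06 at 12 h. The SEs differ between the tables, so sizes cannot be compared across times.

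The 2 experiments share no library, and members can be set side by side across them. Of the 12 members higher after washout, the authors' deposited table gave a value to 11. At 6 h all 11 lay above 0, as did 41 of all 53 members with an adjusted p, and at 12 h 10 lay below 0, with a range of −0.31 to 0.05 and a lowest adjusted p of 0.410. H3c15 was negative at 12 h and had IAA below EtOH after washout. H3c13, positive at 6 h, was given −0.24 at 12 h by the authors' deposited table (adjusted p = 0.516) and was higher after washout. H2bc22, negative at 12 h, stood at 4.71 ± 0.777 and 4.46 ± 1.42 CPM after washout (SD, n = 4, log2 fold change −0.06 ± 0.29, edgeR FDR = 0.910). The authors' tables of PROMPTs, which are transcripts from just upstream of promoters, hold 20 entries with a member's name each. None of these was called, beside 0.00821% of all PROMPTs at 0 h, 0% at 3 h, 0.122% at 6 h and 5.05% at 12 h. Only 12 of the 20 had an adjusted p at 6 h and at 12 h. At these shares, no call among so few entries says little about the members. At 12 h the authors' deposited table put H3c8 lowest at −1.57 ± 0.83 (adjusted p = 0.0728).

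Genes that serve histone gene expression were set beside the members. Of 21 genes of the histone gene expression machinery (transcription, 3′ end cutting and turnover of histone RNA), 3 rose after washout, beside 8.83% of all genes, and 0 fell, beside 7.6%, with a median log2 fold change of 0.21. They were Ncbp1, a subunit of the cap-binding complex (55.4 ± 9.92 and 95.5 ± 13.8 CPM, SD, n = 4, 0.79 ± 0.18, edgeR FDR = 0.0116), the uridylyltransferase Tut7 (0.55 ± 0.15, FDR = 0.0274) and Cramp1l (0.57 ± 0.17, FDR = 0.0358). At 12 h 1 of the 21 was positive, beside 8.58% of all genes, and 2 negative, beside 12.1%, namely Zfp473, a U7 snRNP-binding zinc finger protein (0.87 ± 0.32), Pou2f1, known as Oct-1, which binds the octamer (−1.14 ± 0.29), and the endonuclease Cpsf3 (−0.70 ± 0.22), in the authors' deposited table.

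Replacement and variant histones, many of which are also made outside S phase, had calls in both directions. Of 11, 2 rose after washout, beside 8.83% of all genes, and 1 fell, beside 7.6%, with a median of −0.21. Those higher were H3f3a, which encodes H3.3 (0.58 ± 0.14, edgeR FDR = 0.0150), and H2ax (0.66 ± 0.19, FDR = 0.0321). H1f0 was lower (−0.82 ± 0.24, FDR = 0.0372). With so few genes, these counts say little about the list. By line the median was −0.70 in 10E and 0.22 in 11D, which differ in the same direction as those of the members. At 12 h the authors' deposited table called 2 of the 11 positive, beside 8.58% of all genes, and 2 negative, beside 12.1%. Positive were H3f3b (1.43 ± 0.57) and H3f3a (0.55 ± 0.23), and negative were Cenpa, the centromeric H3 (−0.70 ± 0.24), and Macroh2a1 (−0.67 ± 0.32). H3.3 genes thus stood above 0 at 12 h, where all 12 H3 members stood below it.

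Of 32 tested S phase genes 2 rose after washout, beside 8.83% of all genes, and 0 fell, beside 7.6%. They were Pole (0.68 ± 0.16, edgeR FDR = 0.0141) and Mcm4 (0.67 ± 0.17, FDR = 0.0183). The share higher was near that of all genes. The median was 0.20, and 22 of the 32 lay above 0, beside 7007 of all 15110 genes. By line the median was 0.04 in 10E and 0.33 in 11D, against −0.20 and 1.02 for the histone members. At 12 h the authors' deposited table called 6 of 32 negative, beside 12.1% of all genes, and 0 positive, beside 8.58%, led by Pola1 (−1.46 ± 0.30), E2f2 (−1.29 ± 0.29) and Gins1 (−0.81 ± 0.22). Whether the share of cells in S phase differed between groups was not tested.

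The cells carried the markers of embryonic stem cells. Of 12 naive stem cell markers 11 had a mean above 1 CPM in the washout and 1, Sox2, was at 0 counts in all libraries. Sox2 lies within Sox2ot on the same strand, and it had an adjusted p at every time in the authors' deposited tables, so its 0 cannot be read as absence of its RNA. The 12 markers had a summed level of 2818 to 4771 CPM in EtOH and 3217 to 3686 CPM in IAA libraries. The summed level of 5 fibroblast markers was at most 1.77 CPM. At 12 h, when most histone genes lay below 0, markers of the cells differed too. The authors' deposited table for 12 h called 5 of 12 naive markers negative and 0 positive (median −0.36), 2 of 4 neural markers and 1 of 6 primitive endoderm markers positive, and no trophoblast, mesoderm or fibroblast marker. Of all genes there, 12.1% were negative and 8.58% positive, so 1 call among 6 markers says little. The part of these markers in the values of the histone genes was not tested. Supt16 RNA, which a protein degron does not target, stood at 56.9 to 90.5 CPM in EtOH and 91.5 to 132 CPM in IAA libraries (log2 fold change 0.53 ± 0.18, edgeR FDR = 0.0658).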

How the data were processed

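TT-seq libraries of mouse E14 cells were used as deposited. For the washout the authors deposited raw counts of read pairs per gene, counted over gene bodies on the reverse strand by featureCounts 2.0.1, per the file headers. STAR, deepTools and mm10 are named in the submitters' processing notes. For the time course, and once for the washout, the authors deposited tables of log2 fold changes (shrunken in the time course), standard errors, p-values and adjusted p-values and, in the washout table, a Wald score; tools are not given in the sources used here. Libraries held 6547992 to 16554314 counts, and no value column was left unmapped (0).

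The 4 IAA were tested against the 4 EtOH washout libraries with edgeR 4.0.16 in R 4.3.3 (quasi-likelihood, robust, two-sided, TMM, filterByExpr, Benjamini-Hochberg FDR under 0.05 over 15110 genes). The SE is derived from the test statistic. Within-line and interaction tests used 1 model of line and treatment. DESeq2 1.42.0 was an alternative. The edgeR script was checked on simulated data. Lines pair the treatments by design, since the same line is in both, and replicate numbers do not (correlations of deviations −0.61 to 0.60). With line as a block 11 members rose. No libraries matched within sampling noise. P-values measure only the spread between these libraries, which may be technical. Class sums and the authors' tables were described without a test of their own.

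Members follow from their symbols, but the choice of this gene family and of the gene lists was made with earlier results of these data known. Named members are those called in a comparison, every H1 gene, in each class the member with the highest mean CPM, the largest positive and the largest negative washout value, and the largest value in each of the authors' tables. Any other member named was picked after its values were seen. In other lists at most 4 genes with the smallest adjusted p are named. Stem-loops come from GENCODE M21 transcripts and promoters from RefSeq.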

Additional observations from a re-analysis of the deposited data

Results flagged for a closer look

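In 5 of 80 groups of 4 libraries (EtOH or IAA, for the named members and the class sums), 1 library stood apart from the other 3 by Dixon's criterion, and chance flags about 1 group in 20. In 4 of the 5 it was the second EtOH library of line 10E, on the high side. H4c8 stood at 23.6 CPM there and at 9.82 to 10.2 CPM in the other EtOH libraries, H4c2 at 21.01 CPM beside 10.0 to 10.4, H4c1 at 34.8 CPM beside 17.3 to 19.5, and H2bc8 at 35.4 CPM beside 21.5 to 23.0. The fifth was H2ac22 at 4.89 CPM in the second IAA library of line 11D, beside 2.52 to 2.90 CPM. Without the second EtOH library of line 10E, 18 members rose in place of 12.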

How the results depend on the processing

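No member was called lower under any alternative. The 12 higher members became 19 without the filter on low counts and 7 with the line and replicate block, where all genes called went from 2483 to 1467. The replicate numbers do not pair the libraries, and the line block alone changed 1 call among members, H4c1. Leaving out 1 library gave 4 to 18 members and 1415 to 2641 genes. DESeq2 moved the median of all genes from −0.05 to 0.10 and called 15 members. The interaction, with 0 genes and 0 members, gave 421 and 8 without the filter, 135 and 1 with DESeq2, and 0 to 5 genes and 0 members when 1 library was left out. Raw counts include the ribosomal RNA-like loci. As shares of raw counts the log2 ratio of class sums became −0.081 for H1, −0.38 for H2A, −0.18 for H2B, −0.32 for H3 and 0.19 for H4. Leaving out 1 library, it ran from 0.40 to 0.72 for H1, −0.000317 to 0.42 for H2A, 0.25 to 0.63 for H2B, 0.12 to 0.50 for H3 and 0.61 to 1.08 for H4. The same step turned the sign of 5 uncalled members among those named (the others were not run), which ran from −0.43 to 0.076 (H2ac22), −0.21 to 0.12 (H2bc22), −0.40 to 0.20 (H4c18), −0.21 to 0.061 (H4c9) and −0.27 to 0.028 (H2bc8). In the authors' tables an unadjusted p under 0.05 gave 4 members at 0 h, 1 at 3 h, 5 at 6 h and 7 at 12 h, and an adjusted p under 0.1 gave 4 at 12 h. The cause of these moves was not tested. Of the 11 untested members 7 had few counts at this depth, and 4 had none in any library, 3 of them under an overlapping gene.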

Other observations

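The testis histone gene H2bc1 was detected at 0.851 to 2.32 CPM in the 8 washout libraries, while its divergent partner H2ac1 was at 0 counts in 3 of them. The annotated pseudogene H2ac14 had 5 to 20 counts in each EtOH library and 0 or 1 in each IAA library, at 0.387 to 0.925 and at most 0.132 CPM. It was too low for the test, shares 93.1% of its 50-base runs with H2ac13, and was singled out after its values were seen.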
